A study of Danio rerio with 4 samples.

Results

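The insulin-like growth factor (IGF) genes were followed in bulk RNA sequencing of sorted endothelium, taken at 5 days post fertilisation from the zebrafish caudal hematopoietic tissue. The genes were taken by name: 10 symbols for ligands, receptors and binding proteins matched 11 of the 28346 genes listed. The name table writes IGF1R, IGFBP2 and IGFBP5 without a paralog letter and gives each name to a pair of identifiers, so the identifier is added where these genes are described. All larvae were untreated and labelled wild type, and carried a pair of reporters. The kdrl promoter, active in vascular endothelium, drove GFP, and the lyve1b promoter, active in veins and lymphatics, drove DsRed. The vein group, with 2 libraries, holds cells positive for both reporters. The non-vein group, with 2 libraries, holds cells with GFP alone and is the control in the labels. The comparison asks how IGF gene expression of vein endothelium differs from that of the remaining GFP-positive cells. A DsRed gate sets the vein group, so it takes in any GFP-positive cell that uses the lyve1b promoter, and the labels do not say how many larvae went into a library.

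IGF1 and IGF2 are secreted growth factors that signal through the IGF1 receptor, a receptor tyrosine kinase, and promote growth, proliferation and survival. Binding proteins of the IGFBP family hold the ligands outside the cell and can block or prolong their action, and proteases release the ligands by cleaving them. Inside the cell, receptor activity reaches the kinases PI3K, AKT and MTOR and restrains FOXO transcription factors. The caudal hematopoietic tissue is a tail vein plexus where hematopoietic stem cells lodge and multiply.

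The libraries held 15672159 to 18862102 estimated counts, and levels are given as CPM, counts scaled to an equal library total. The limit that 0 counts allow, taken as 3 counts over the unscaled library total, was 0.159 to 0.191 CPM, depending on the library, for counting error only. The labels do not say whether replicates came from separate larvae, and p-values therefore cover only the spread among these samples, possibly technical. lyve1b, which restates the gate, gave 53.7 and 217 CPM in the non-vein libraries against 1953 and 1636 CPM in vein. All 12 pan-endothelial marker genes tested were detected in each library. Their summed level was 4020 and 5609 CPM in non-vein against 17192 and 14896 CPM in vein. Of this sum kdrl, whose promoter drove the GFP reporter, held 1998 and 2956 CPM in non-vein and 10504 and 7933 CPM in vein. Of the 12 markers 8 were called higher (edgeR), beside 4.11% of all genes tested. FLI1 alone had a negative fold, without a call (log2 -0.38). The 11 markers of blood progenitors and leukocytes went the other way in sum, with 2322 and 1751 CPM in non-vein against 119 and 245 CPM in vein. Of these markers 6 were called lower, beside 7.33% of all genes tested. Of the hepatocyte markers, chosen because the liver is the main source of circulating IGF1, fabp10a, FGB and serpina1l had no count in any library and the list summed to 2.23 to 8.36 CPM. Skeletal muscle markers summed to 840 and 2177 CPM in non-vein and to 3167 and 8450 CPM in vein. The 8 epidermal markers summed to 98.9 and 134 CPM in non-vein, to 56.5 CPM in vein library 1 and to 512 CPM in vein library 2. In such bulk samples fewer cells of a type and less RNA per cell cannot be told apart.

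Of the 11 IGF genes, 9 passed the filter on low counts and 3 rose in vein: the ligand genes igf2b and igf2a and the binding protein gene IGFBP7. Of these, igf2a had no count in non-vein and passed the filter through the vein libraries alone, so its direction was set. None of the 9 fell past the threshold with edgeR, none was lower at an unadjusted p under 0.05, and the 4 that DESeq2 called, igf2a among them, were all higher. Over all 15953 genes tested with edgeR's quasi-likelihood test, 4.11% were called higher and 7.33% lower in vein (Benjamini-Hochberg adjusted p under 0.05), or 11.4% in either direction. The groups did not overlap for 6 of the 9 IGF genes, against 62.1% of all genes tested. The median log2 fold of the 9, igf2a included, was 1.23, beside 0.01 over all genes. Without igf2a the median lies between the log2 folds of IGF1R (ENSDARG00000027423), 0.12, and IGFBP7, 1.23. Leaving out a library leaves 1 library in its group, and which IGF genes were called then changed. igf2b, igf2a and IGFBP7 each lost their call in at least 1 of these fits, while IGFBP2 (ENSDARG00000052470) gained a call.

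**Figure D1:**
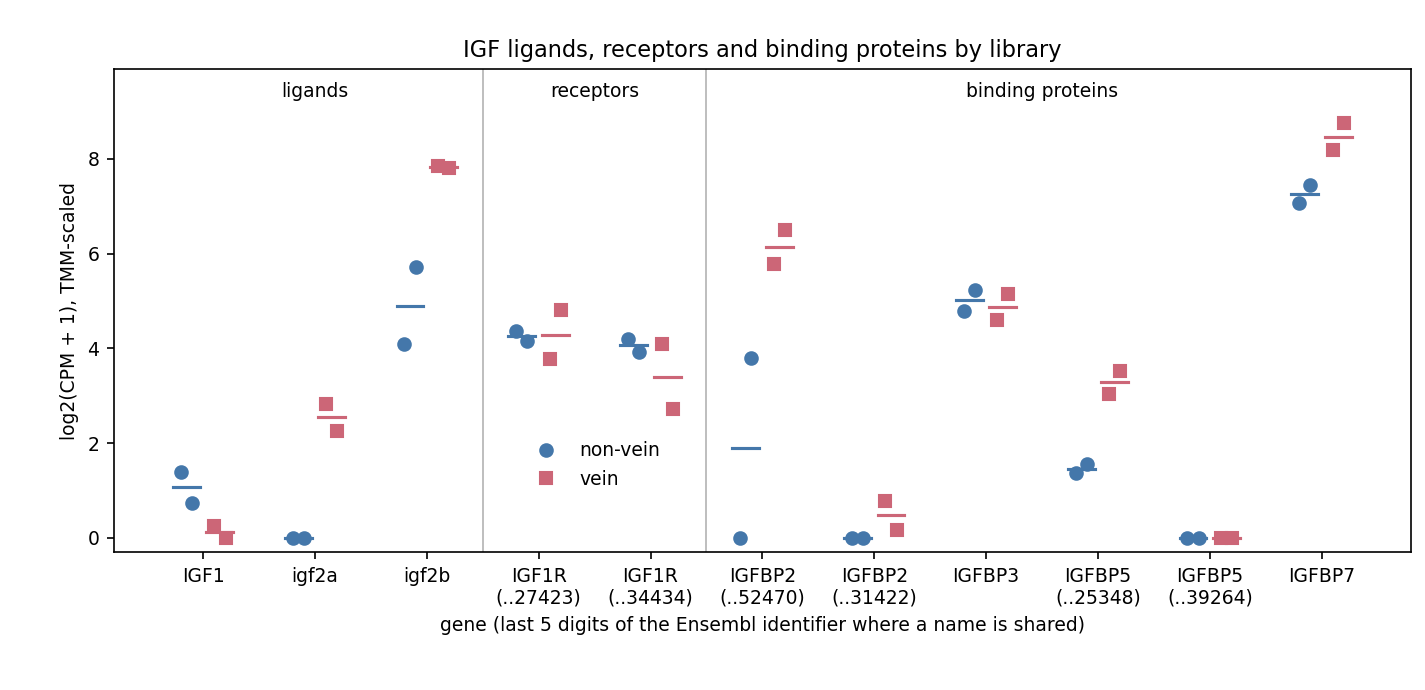
Level of each IGF gene in every library, as log2(CPM + 1), with non-vein libraries as circles, vein libraries as squares and a line at the mean of each group's log2 values. igf2b, igf2a, IGFBP7, IGFBP5 (ENSDARG00000025348) and both IGFBP2 genes are higher in both vein libraries than in either non-vein library, IGF1 is lower, and the groups overlap for the IGF1R genes and IGFBP3.

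Among the ligands, igf2b, one of the zebrafish counterparts of IGF2, was the most abundant. It gave 15.97 and 51.8 CPM in the non-vein libraries against 229.7 and 223 CPM in vein. The vein libraries were close to each other, while non-vein library 2 held 3.24 times the level of non-vein library 1. igf2b rose in vein from 33.9 ± 25.4 to 226 ± 4.67 CPM (SD, n = 2), a 6.68-fold difference with a 95% interval of 2.51 to 17.8 (log2 2.74, SE 0.57; edgeR, adjusted p = 0.0384). Leaving out non-vein library 2 gave a log2 fold of 3.82 and leaving out non-vein library 1 gave 2.13, and its call was lost without vein library 1 (edgeR, adjusted p = 0.0568).

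igf2a, the other counterpart of IGF2, had 0 counts in both non-vein libraries and 94 and 59 counts in the vein libraries, or 6.14 and 3.76 CPM. It was detected in the vein libraries only and was called higher there (edgeR, adjusted p = 0.0463). The gene passed the filter on low counts through the vein libraries alone, so once tested it could only be higher in vein. With the non-vein group set at 3 counts over its libraries, the ratio of vein to non-vein was 62.7. This ratio allows for counting error in non-vein only and is not a lower limit across libraries. The interval of the edgeR fit began at 22.4-fold, a value that depends on the prior count. The call was lost without vein library 1 or either non-vein library (edgeR, adjusted p = 0.117, 0.133 and 0.0967). The RefSeq gene table lists igf2b among the older names of igf2a and igf2a among those of igf2b, so the letters may be exchanged in older work. Paralogs with similar sequence can share reads, and how the authors' estimates split them is uncertain.

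IGF1 (ENSDARG00000094132), the main growth hormone target among the ligands, ran opposite to the igf2 genes at very low levels. It had 30 and 13 counts in non-vein against 3 and 0 counts in vein. The ratio of non-vein to vein was 11.7 with an exact 95% counting interval of 3.73 to 58.8, and the difference did not pass the test across libraries (edgeR, adjusted p = 0.305). igf3, a fish gonadal ligand gene that was not among the 10 symbols, had no count.

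The receptor genes did not pass the test. IGF1R (ENSDARG00000027423) gave 19.7 and 16.9 CPM in the non-vein libraries against 12.6 and 27.04 CPM in vein. IGF1R (ENSDARG00000034434) stood at 17.3 and 14.3 CPM in non-vein and at 16 and 5.55 CPM in vein. The paralogs went opposite ways between the vein libraries, the first being 2.15 times higher and the second 2.88 times lower in vein library 2. Their sum varied less, at 36.9 and 31.2 CPM in non-vein and 28.6 and 32.6 CPM in vein. The log2 fold was 0.12 with a 95% interval of -1.21 to 1.44 for ENSDARG00000027423 and -0.55 with an interval of -2.23 to 1.13 for ENSDARG00000034434 (edgeR, adjusted p = 0.922 and 0.663). Both intervals take in 0 and differences past 1 in size, so similar levels are not shown. Without vein library 2 the signs were exchanged, at -0.54 and 0.02.

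IGFBP7 (ENSDARG00000104138), a secreted protein of vessel basement membranes that binds IGFs weakly and insulin as well, had the highest level of the 11 genes. It gave 133 and 174 CPM in the non-vein libraries against 292 and 430 CPM in vein. Both vein libraries lay above both non-vein libraries. With group means of 154 ± 28.8 and 361 ± 97.3 CPM (SD, n = 2), IGFBP7 rose 2.35-fold in vein, with a 95% interval of 1.44 to 3.83 (log2 1.23, SE 0.28; edgeR, adjusted p = 0.0495). The call stood just inside the threshold and was lost when non-vein library 1 or vein library 2 was left out (edgeR, adjusted p = 0.111 and 0.136), and when library totals were not scaled (0.0567).

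IGFBP2 (ENSDARG00000052470), which encodes a binding protein that mostly restrains IGF action in zebrafish embryos, differed strongly between the non-vein libraries. It had 0 and 253 counts in non-vein against 829 and 1411 counts in vein, which is 0 and 12.9 CPM against 54.1 and 89.99 CPM. The groups were separate, but with this spread in non-vein the gene did not pass the test (log2 3.48, SE 1.72; edgeR, adjusted p = 0.249). Leaving out either non-vein library leaves 1 library in that group and removes this spread, so calls gained that way do not show a firmer difference. Without non-vein library 2 the log2 fold was 13.21, fitted against 0 counts. The paralog ENSDARG00000031422 had 0 and 0 counts in non-vein and 11 and 2 counts in vein and was not tested.

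IGFBP5 (ENSDARG00000025348), a matrix-associated binding protein gene that can enhance or inhibit IGF action, had 29 and 38 counts in non-vein against 110 and 165 counts in vein. These are 1.58 and 1.93 CPM against 7.18 and 10.5 CPM, with no overlap. The 5.03-fold difference did not pass the test after adjustment (log2 2.33, 95% interval 0.26 to 4.41; edgeR, adjusted p = 0.129). The paralog ENSDARG00000039264 had 0 counts in every library, so it was not detectable at this depth.

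IGFBP3 (ENSDARG00000099144), the gene of the main carrier of circulating IGFs in mammals, showed overlapping groups, with 26.8 and 36.8 CPM in non-vein against 23.3 and 34.6 CPM in vein. The log2 fold was -0.14 with a 95% interval of -1.11 to 0.84 (edgeR, adjusted p = 0.871). Its sign turned positive without non-vein library 2 or vein library 1.

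**Figure D2:**
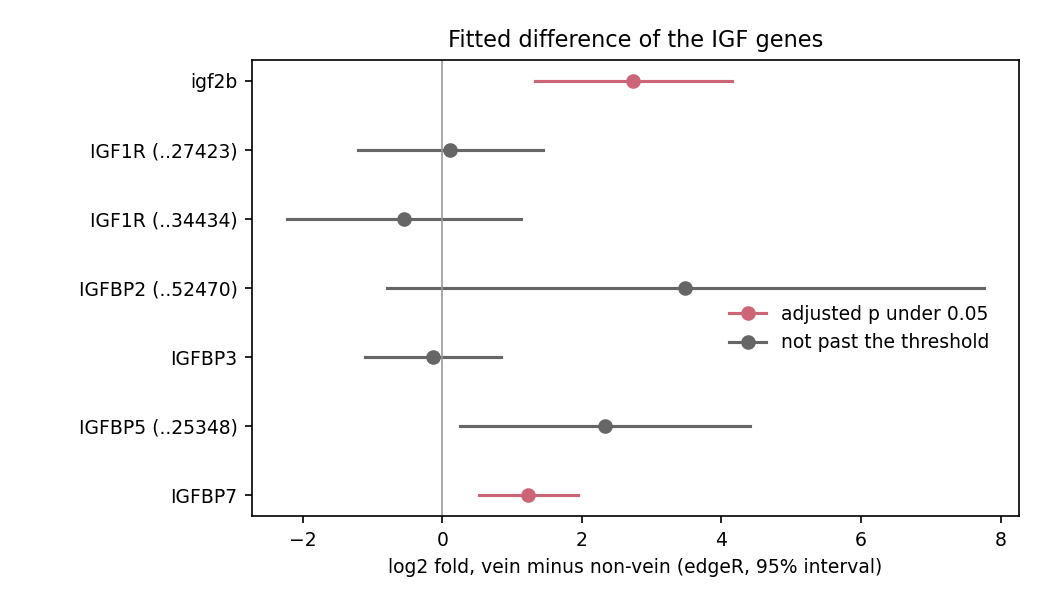
Fitted log2 fold of vein over non-vein for 7 of the 9 tested IGF genes with its 95% interval. igf2b and IGFBP7 passed the threshold. igf2a and IGF1 are not drawn because a group had 0 counts or 3 counts, where the fitted fold depends on the prior count.

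IGFBP7, IGFBP5 (ENSDARG00000025348) and IGFBP2 (ENSDARG00000052470) shared an order over the libraries, lowest in non-vein library 1, then non-vein library 2, vein library 1 and vein library 2. Other binding protein genes did not: IGFBP3, IGFBP2 (ENSDARG00000031422), at 11 and 2 counts in the vein libraries, and igfbp1b, at 84 and 31 counts. How many of all genes have this order was not counted. The summed level of the 9 skeletal muscle markers followed the same order, and so did that of the 13 stroma and fibroblast markers, at 56.3, 130, 648 and 849 CPM. The summed level of the 11 vein and lymphatic markers also followed it, at 406, 1213, 7752 and 7899 CPM, but not every marker did. In vein libraries 1 and 2 lyve1a stood at 1224 and 2121 CPM. By comparison lyve1b stood at 1953 and 1636 CPM there and stab2 at 1312 and 1074 CPM. Of the muscle markers 1 of 9 was called, ckma, higher in vein. Of the stroma markers 1 of 8 tested was called, POSTN, which alone stood at 611 and 671 CPM in vein. For both lists 1 call is near the 11.4% of all genes called in either direction, with 4.11% called higher. Yet all 9 muscle markers had a positive fold, with a median log2 of 1.88. Of these, 7 had an unadjusted p under 0.05 (edgeR), beside 4795 of all 15953 genes tested. Of the 8 stroma markers 7 had a positive fold and 1 a negative fold, with a median log2 of 1.55, and 2 had such a p. fap had no count in any library, and PDGFRA had none in non-vein library 1 and vein library 1. The part of such cells in the binding protein levels was not tested. igf2b did not share this order, but its vein libraries differed by less than 1.03 times. The vein and lymphatic sum was also close between the vein libraries, so this order does not set igf2b apart from the vein markers.

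Levels of different genes were compared as FPKM, which scales by transcript length. In the vein libraries IGFBP7 came first at 334 and 481 FPKM, followed by igf2b at 66.3 and 62.99 FPKM and IGFBP2 (ENSDARG00000052470) at 30.3 and 49.2 FPKM. IGFBP3 was next at 7.37 and 10.7 FPKM, and the remaining genes stayed at or under 4.12 FPKM. These first 4 places did not overlap in vein. In the non-vein libraries IGFBP7 was again first at 159 and 212 FPKM, while igf2b at 4.81 and 15.98 FPKM and IGFBP3 at 8.85 and 12.4 FPKM could not be ordered, since their ranges overlapped. By mean FPKM, igf2b ranked 5133 of 20234 detected genes in non-vein and 1437 of 19038 in vein, and IGFBP7 ranked 744 and 307. The receptor genes were low in both groups, with 1.96 to 4.12 FPKM for ENSDARG00000027423 and 0.428 to 1.42 FPKM for ENSDARG00000034434.

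The balance between classes was read from the summed FPKM of the 11 genes. IGFBP1 (ENSDARG00000099351), a binding protein gene outside the 10 symbols, was left out of these sums. It stood at 401 and 475 FPKM in non-vein and at 401 and 350 FPKM in vein. Including it would lower the shares of ligands and of IGFBP7, so the shares hold for the 11 genes only. Ligands held 3.45% and 6.55% of the sum of the 11 genes in non-vein and 15.6% and 10.6% in vein. The gene igf2b made up 78.2% to 97.3% of the ligand part. Receptors held 2.59% and 1.59% in non-vein against 0.723% and 0.742% in vein. Binding proteins held the bulk in every library, with 93.96% and 91.9% in non-vein against 83.7% and 88.7% in vein, and IGFBP7 made up 88.6% to 94.6% of their part. In these shares the groups did not overlap for any of the 3 classes, and the shares depend on each other since they add up to the whole. The lower shares in vein do not mean lower levels. Binding proteins summed to 168 and 232 FPKM in non-vein against 374 and 543 FPKM in vein. The receptor sums overlapped, at 4.62 and 4.02 FPKM against 3.23 and 4.55 FPKM. The sum of all 11 genes was 178 and 253 FPKM against 446 and 612 FPKM. The shares are given as a description, and an exact two-sided permutation test of 2 libraries against 2 cannot go below p = 0.33.

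**Figure D3:**
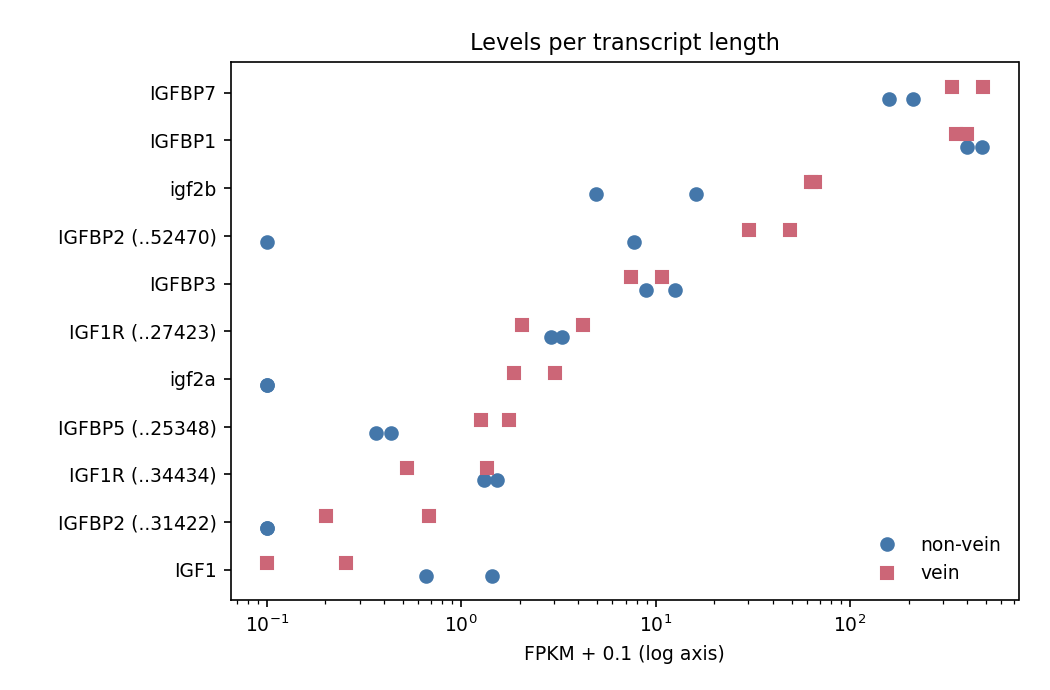
FPKM + 0.1 on a log axis for the IGF genes with a value above 0 in any library and for IGFBP1, with non-vein libraries as circles and vein libraries as squares, in order of the vein mean. IGFBP7 and IGFBP1 lie above the other genes in both groups, and igf2b moves from the range of IGFBP3 in non-vein to 66.3 and 62.99 FPKM in vein.

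The non-vein libraries differed from each other in vein genes, and 5 of the 11 IGF genes were higher in non-vein library 2 than in library 1. Another 3 of the 11 had no count in library 2. All 9 skeletal muscle markers and 10 of 12 pan-endothelial markers were also higher in library 2, beside 2 of 11 blood progenitor and leukocyte markers. The share over all genes was not counted. The muscle and pan-endothelial lists were themselves higher in vein, with median log2 folds of 1.88 and 1.44, and the blood list was lower, at -3.95. lyve1b was at 2.99% of its vein mean in non-vein library 1 and at 12.1% in library 2, and all 11 markers of vein and lymphatic endothelium were higher in library 2. For igf2b these values were 7.05% and 22.9%, and for IGFBP2 (ENSDARG00000052470) 0% and 17.8%. igf2a was at 0% in both non-vein libraries, library 2 included. The growth hormone receptor gene ghra, which acts upstream of IGF production, went from 0.248% to 26.2%. By contrast IGFBP5 (ENSDARG00000025348) stood at 17.8% and 21.8% and IGFBP7 at 36.9% and 48.2%, closer between the libraries. Vein and lymphatic markers varied in this. FLT4, at 39.0% and 44.3%, and DAB2 (ENSDARG00000053091), at 29.1% and 34.4%, were as close, and MRC1, at 2.59% and 12.8%, was not. Closeness therefore does not set these binding protein genes apart from vein genes. Whether vein cells in non-vein library 2 account for these levels was not tested.

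**Figure D4:**
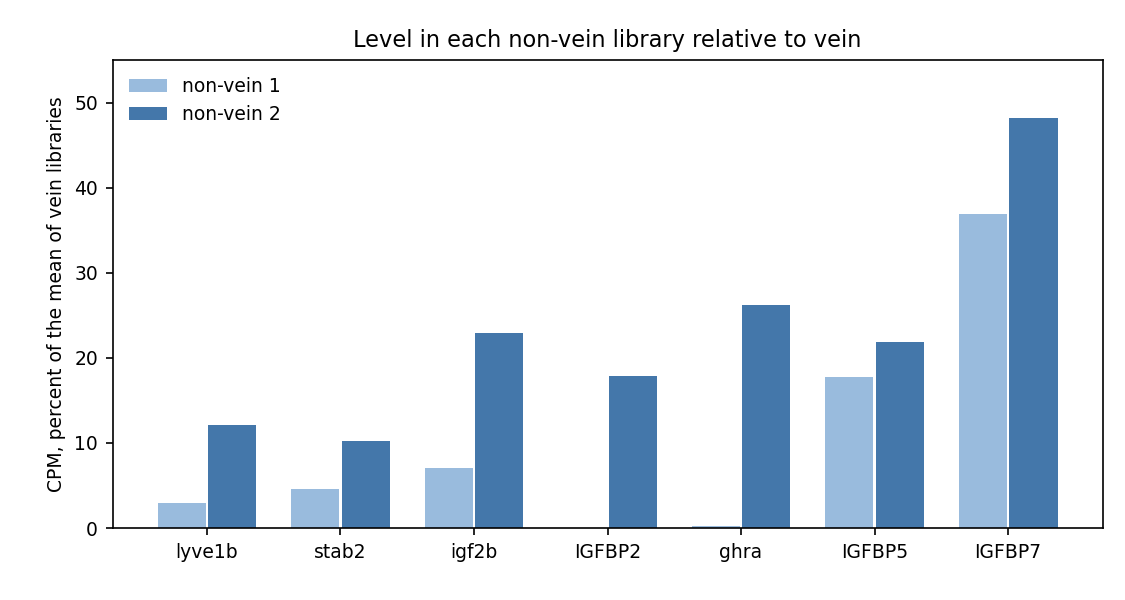
CPM of each non-vein library as a percentage of the mean of the vein libraries, for the vein genes lyve1b and stab2, 4 IGF genes and the growth hormone receptor gene ghra. Bars start at 0. For lyve1b, stab2, igf2b, IGFBP2 (ENSDARG00000052470) and ghra the bar of non-vein library 2 is more than 2 times that of library 1.

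Since the pan-endothelial markers were themselves higher in vein, the genes were also scaled to them, a choice made after the data were seen. On this scale the median log2 fold of all genes moved from 0.01 to -1.36, the calls over all genes went from 656 higher and 1170 lower to 141 higher and 4535 lower, and folds say how a gene moved relative to endothelial markers. The log2 fold of igf2b was 1.47 (edgeR, adjusted p = 0.0587), and igf2a kept its call (edgeR, adjusted p = 0.0378). That of IGFBP7 was -0.13 with an SE of 0.32 and no call (edgeR, adjusted p = 0.801), a value that its log2 fold of 1.23 and the shift of all genes lead to, and which does not show an equal change. IGFBP3 was lower on this scale (log2 -1.49; edgeR, adjusted p = 0.0434), which is near the shift of all genes. Of the summed CPM of these markers kdrl was the largest part. Per 1000 CPM of that sum, igf2b stood at 3.97 and 9.24 CPM in non-vein and 13.4 and 14.98 CPM in vein. On the same scale IGFBP7 stood at 33.1 and 31.02 CPM in non-vein and 16.98 and 28.8 CPM in vein.

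The genes with the most similar pattern were sought among named genes averaging 5 CPM or more, by the Euclidean distance between centred log2 CPM over the 4 libraries. Nearest to igf2b were nupr1b, zgc:110286 and si:ch211-212k18.9, at distances of 0.10, 0.10 and 0.12 on the log2 scale. nupr1b stood at 8.48 and 27.2 CPM in non-vein and at 114 and 110.5 CPM in vein. Nearest to IGFBP7 were xpr1b, RAB3IL1 and serinc2, at distances of 0.11, 0.13 and 0.13. For igf2a, HMOX1 lay at 0.89 and npb at 1.23, farther than the genes named for igf2b and IGFBP7. With 4 libraries many genes share a pattern, and these distances are a description.

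Outside the 10 symbols, 26 further genes of the IGF system were listed, 15 were tested, and 1 changed: IGF2BP3, which encodes an RNA-binding protein of IGF2 messages and other mRNAs, fell in vein. It gave 107 and 148 CPM in the non-vein libraries against 52.5 and 47.7 CPM in vein (log2 -1.35, SE 0.28; edgeR, adjusted p = 0.0384). The call was lost without non-vein library 2 and without either vein library (edgeR, adjusted p = 0.107, 0.0905 and 0.0959). This 1 of 15 stands beside 7.33% of all genes called lower and 4.11% called higher, and the median log2 fold of the 15 was -0.13. IGFBP1 (ENSDARG00000099351), a binding protein gene induced by hypoxia and fasting in fish, was abundant throughout, with 698 and 807 CPM in non-vein and 727 and 650 CPM in vein (log2 -0.13, 95% interval -0.61 to 0.36; edgeR, adjusted p = 0.737). In the RefSeq gene order of assembly GRCz12tu, igfbp1a and igfbp3 are direct neighbours with no protein-coding gene between them, yet IGFBP1 was listed at 350 to 475 FPKM and IGFBP3 at 7.37 to 12.4 FPKM. igfbp1b had 0 counts in both non-vein libraries and 84 and 31 counts in the vein libraries and did not pass the test (edgeR, adjusted p = 0.0617).

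Among regulators of binding protein cleavage, the protease genes PAPPA (both identifiers) and PAPPA2 had at most 5 counts in a library. STC1 (ENSDARG00000003303), whose mammalian product inhibits PAPPA, stood at 91.99 and 58.99 CPM in non-vein and at 26.0 and 42.4 CPM in vein, and did not pass (edgeR, adjusted p = 0.116). ghra stood at 0.217 and 22.9 CPM in non-vein and at 72.9 and 102 CPM in vein, and did not pass (edgeR, adjusted p = 0.279). Its relative ghrb stood at 3.86 and 14.7 CPM against 36.9 and 24.7 CPM (edgeR, adjusted p = 0.18). Of the insulin receptor genes, INSR (ENSDARG00000071524) stood at 9.13 and 6.91 CPM in non-vein against 20.3 and 19.3 CPM in vein (edgeR, adjusted p = 0.159), and INSR (ENSDARG00000011948) showed overlapping groups. The 26 genes were chosen with earlier results of these data known, and those named here besides IGF2BP3 were chosen after their values were seen.

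Downstream of the receptors, 57 of 58 listed insulin and IGF signalling genes were tested, and 4 rose and 1 fell in vein, beside 4.11% and 7.33% of all genes. The median log2 fold was 0.04. GRB10 (ENSDARG00000002013), an adaptor that inhibits insulin and IGF receptor signalling, gave 68.5 and 65.1 CPM in the non-vein libraries against 245 and 279 CPM in vein, and rose 3.92-fold (log2 1.97, SE 0.22; edgeR, adjusted p = 0.0149). SESN1, a stress-induced inhibitor of MTOR complex 1, stood at 54.4 and 35.9 CPM in non-vein against 152 and 192 CPM in vein (log2 1.93; edgeR, adjusted p = 0.0220). FOXO1 (ENSDARG00000099555), a transcription factor that AKT keeps out of the nucleus, stood at 37.7 and 52.8 CPM against 112 and 127 CPM (log2 1.40; edgeR, adjusted p = 0.0380). In each of these called genes the groups were separate with vein higher, which held for 29.0% of all genes tested.

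Of the 4 tested genes of EIF4E-binding proteins, translation repressors that MTOR inactivates, 1 rose, 1 fell and the others did not pass. EIF4EBP3 (ENSDARG00000041607) rose, from 208 and 247 CPM in non-vein to 548 and 670 CPM in vein (log2 1.42; edgeR, adjusted p = 0.0204), and eif4ebp1 fell, from 1069 and 883 CPM to 458 and 511 CPM (log2 -1.01; edgeR, adjusted p = 0.0354). EIF4EBP2 had a log2 fold of 0.40 and the other eif4ebp3 gene, ENSDARG00000054916, one of -0.35 (edgeR, adjusted p = 0.453 and 0.494). The call of FOXO1 was lost without non-vein library 1 and without either vein library (edgeR, adjusted p = 0.101, 0.0725 and 0.0856), as was that of eif4ebp1 (edgeR, adjusted p = 0.0567, 0.127 and 0.0761). Scaled to the pan-endothelial markers, GRB10, SESN1, EIF4EBP3 and FOXO1 were no longer called (log2 0.59, 0.51, 0.06 and 0.05), and eif4ebp1 was (log2 -2.41; edgeR, adjusted p = 0.00362). The other paralog of GRB10, ENSDARG00000035308, stood at 11.6 and 10.8 CPM in non-vein against 26.8 and 46.04 CPM in vein and did not pass (edgeR, adjusted p = 0.0674), a gene chosen after its values were seen.

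**Figure D5:**
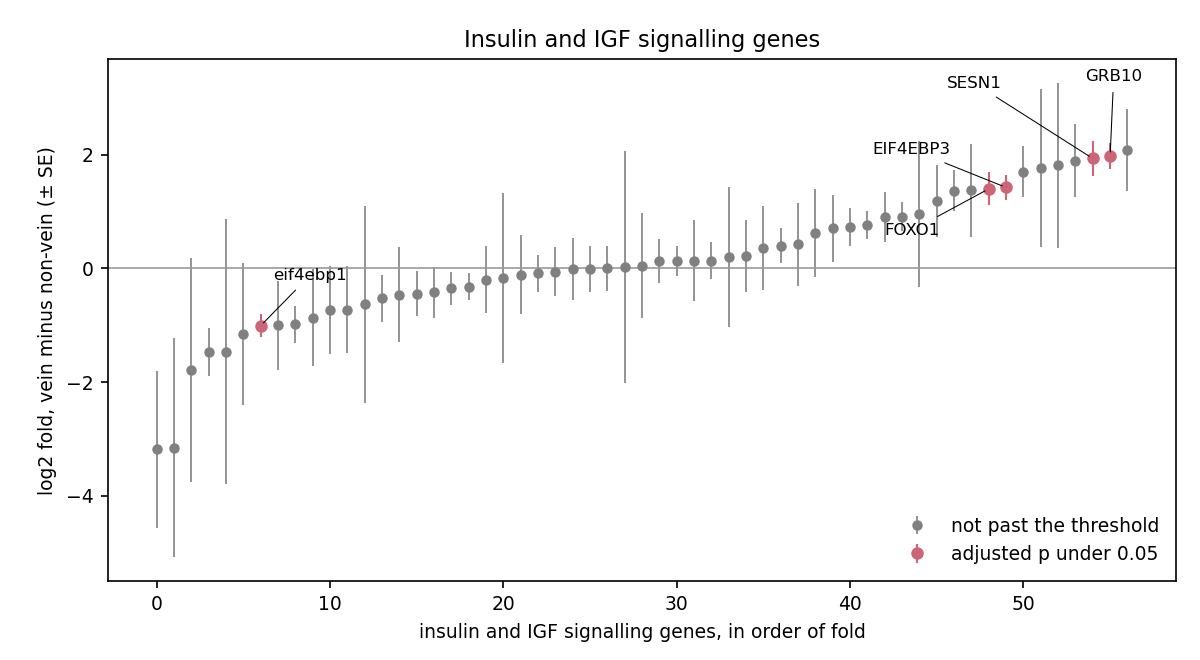
Log2 fold of vein over non-vein with its standard error for the 57 tested insulin and IGF signalling genes, in order of the fold. The 5 genes past the threshold are named, GRB10, SESN1, EIF4EBP3 and FOXO1 above 0 and eif4ebp1 below it.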

How the data were processed

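RNA of 4 sorted samples was analysed, 2 vein and 2 non-vein, grouped by their titles. Per the submitters' processing notes the build was GRCz11 and the tools included RSEM, StringTie 1.3.1, HISAT2, Bowtie2 2.2.8, DESeq2 and fastp 0.18.0, with no step given for each. The sources used here do not give the strand setting. Tests used the table of estimated counts, which the authors deposited under columns headed FPKM. Its values are whole numbers summing to 15672159 to 18862102, so they were used as rounded expected counts. The second table holds FPKM, deposited by the authors, and was used for levels between genes and for alternatives. Of 25522 Ensembl identifiers 23608 had a symbol. The RefSeq gene table is of another build, so no coordinates are printed, and no sequence is shown.

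The test was the quasi-likelihood test of edgeR 4.0.16 (legacy method, R 4.3.3) with group as its one term, after filterByExpr at a minimum count of 10 and TMM scaling, and p-values were adjusted by Benjamini and Hochberg's method over all 15953 genes, with a threshold of 0.05. The procedure was run on simulated data with large changes and less spread than these data hold, which checks the code and not the error rate here. CPM are TMM-scaled, SE is the log2 fold over the square root of F, and intervals use the fit's degrees of freedom. A group without counts was set at 3 counts. Alternatives were DESeq2 1.42.0, other scalings and filters, limma 3.58.1 on log2(FPKM + 1 or + 0.1) for genes averaging 1 FPKM or more, or unfiltered, a replicate block, removal of mitochondrial, ribosomal protein and haemoglobin genes, leaving out each library and, added after the data were seen, scaling to pan-endothelial markers by the geometric mean of their counts. The genes and lists were chosen with earlier results of these data known. Named are all 11 IGF genes, up to 6 changed genes of each pathway list and the 3 nearest patterns of igf2b, IGFBP7 and each changed IGF gene, of which 1 is not reported here. A name on more than 3 identifiers was left out.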

Additional observations from a re-analysis of the deposited data

How the results depend on the processing

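The 3 calls among the IGF genes were near the threshold, and 15 alternatives were run. igf2b kept its call in 12 of them, IGFBP7 in 9 and igf2a in 8. Counts below are calls by edgeR unless another tool is named, and the cause of each move was not tested. Over all genes 4079 of 21802 tested were called by DESeq2, 2845 of 21802 with no filter and 3300 of 13389 by limma on log2(FPKM + 1). Limma without a filter called 1262 of 21810. Scaling to pan-endothelial markers called 4676 of 15953 (141 higher, 4535 lower), against 1826 of 15953 in the main fit. Leaving out each library gave 1084 to 1903, and the share of calls that were higher, 35.9% with all libraries, ranged from 29.0% (without vein library 2) to 49.5% (without non-vein library 2). Of the IGF genes limma without a filter called 0 of 10. Of the other IGF system genes DESeq2 called 3 of 19 and no filter 2 of 19. Limma called 3 of 14, limma without a filter 0 of 19 and pan-endothelial scaling 6 of 15. Of the signalling genes DESeq2 called 11 of 58 and no filter 9 of 58. Limma called 7 of 50, limma without a filter 3 of 58 and pan-endothelial scaling 11 of 57. These counts are to be read beside those of all genes in the same setting. IGF1 had a value in 12 of the alternatives and IGFBP5 (ENSDARG00000025348) in 13, since the filters on FPKM or counts removed them from the others.

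The log2 fold of igf2a lost its call by limma at 1.72 (FPKM + 1, with or without a filter) and 4.57 (FPKM + 0.1), and without each library it was 9.08 to 9.77, values that depend on the prior count. igf2b lost its call at 2.72 (limma without a filter) and 1.47 (pan-endothelial scaling), and was 2.13 to 3.82 without each library. IGFBP7 lost its call at 1.13 (unscaled totals, and limma without a filter) and 1.22 (without haemoglobin, mitochondrial and ribosomal protein genes), reversed to -0.13 with pan-endothelial scaling, and was 0.92 to 1.48 without each library. IGF1R (ENSDARG00000027423) reversed to -0.039 and -0.071 by limma with 1 and 0.1 added, -0.039 without a filter and -1.29 with pan-endothelial scaling, and was -0.54 to 0.56 without each library. IGF1R (ENSDARG00000034434) was -1.51 to 0.017 without each library. IGFBP2 (ENSDARG00000052470) passed by limma at 3.75 and was 2.49 to 13.21 without each library, the latter fitted against 0 counts. IGFBP3 was -0.45 to 0.12 without each library and -1.49, past the threshold, with pan-endothelial scaling. IGFBP5 (ENSDARG00000025348) passed by DESeq2 at 2.32. With pan-endothelial scaling xpr1b, RAB3IL1 and serinc2 reversed to -0.17, -0.17 and -0.044.

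With the replicate number as a block, 1170 of all genes, 0 other IGF system genes and 3 signalling genes were called, and igf2a was not (log2 9.39; edgeR, adjusted p = 0.121), while igf2b and IGFBP7 were (0.0437 and 0.0425). Same-numbered libraries deviated together only weakly (r = 0.0407 over genes), so the numbers are not shown to pair the samples. With 2 libraries a group and a biological coefficient of variation of 0.699, genes under a few CPM such as IGF1 are poorly resolved.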
